A study of Mus musculus with 29 samples.

Results

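Gene expression was compared directly between C2C12 cells given a miR-365 mimic and C2C12 cells given a miR-145 mimic. C2C12 is a line of mouse myoblasts, muscle precursor cells that can differentiate and fuse into myotubes in low serum. The comparison used 6 of the 29 arrays of the series, namely 3 arrays of miR-365 mimic cells and 3 arrays of miR-145 mimic cells, chosen by their labels alone. Both groups were dividing myoblasts of the same passage, transfected with 50 nM of a Qiagen mimic and harvested after 36 h, and replicates 1 to 3 are 3 separate biological experiments. The AllStar control oligonucleotide was transfected in the same way at the same dose, and its levels are quoted for orientation but enter no test. A mimic raises a microRNA far above its own level in one cell line, which limits both groups as models. Total RNA was read on Affymetrix arrays, and all levels are log2 RMA signals. A difference is the miR-365 mean minus the miR-145 mean on that log2 scale. It is given with limma's moderated standard error, which draws each gene's spread toward that of genes at a similar level. For a gene with widely spread arrays this error is smaller than its own spread alone would give. Errors are for 3 arrays against 3 unless an array is left out.

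A microRNA is a short RNA that an Argonaute protein carries to messenger RNAs whose sequence pairs with the seed at the microRNA's 5′ end, and the paired messages are degraded or translated less. miR-145 is known in smooth muscle, where it is made together with miR-143 under serum response factor, and many messages have been ascribed to it as targets. miR-365 is less studied in muscle, and its ascribed targets include the cyclin Ccnd1 and the survival factor Bcl2. Double-stranded RNA inside a cell can be sensed by receptors such as RIG-I (Ddx58) and MDA5 (Ifih1), which signal through the adaptor Mavs to interferon factors. Secreted type I interferon then acts through its receptor, the kinases Jak1 and Tyk2 and the factor Irf9 to switch on a large set of antiviral genes.

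The mature 3p strand of mouse miR-365 is shown because its seed, in capitals, is the part that pairs with targets. The labels name the mimic only as miR-365 and do not state the strand. The sequence is RefSeq's for build GRCm38.p6, and the identical strand is encoded by Mir365-2 at chr11:79726467-79726488 and by Mir365-1 at chr16:13453895-13453916, both on the plus strand.
mmu-miR-365-3p: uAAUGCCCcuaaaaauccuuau

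The medians of the 6 arrays over all probe sets lay between 7.27 and 7.39. One array stood apart. In miR-145 replicate 3, 96 genes lay more than 1 log2 unit above both other miR-145 arrays, and 62 of these belonged to the interferon lists described below. In the other 20 mimic arrays of the series at most 16 genes lay that far above both other arrays of their group, and 0 of them were interferon genes. Across genes, miR-145 replicate 3 had a Pearson's r of 0.9913 and 0.9916 with the other miR-145 arrays, which had 0.9971 with each other, and the miR-365 arrays had 0.996 to 0.9972 among themselves. Counts of the interferon lists, and differences of several interferon genes and chemokines, are therefore given with and without it. Other differences are over all 6 arrays, and their size can also rest on this array. Calls of named genes that were lost without it are mentioned. The 10 myoblast and myotube markers of the labelled cell type were at high levels, with a mean of 11.13 to 11.20 under miR-365, 10.88 to 11.45 under miR-145 and 10.88 to 11.08 in the control. The mean of 8 leukocyte markers was 6.47 to 6.54 under miR-365 and 6.40 to 6.55 under miR-145, against 6.45 to 6.47 in the control. Probe sets with no listed gene had a median of 6.66, which serves as a rough floor, and no fold is given where the lower group's mean lies under it. In bulk RNA, fewer cells of a kind and less RNA per cell cannot be told apart.

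Many genes differed between the groups. Of 19938 genes tested in limma, 3633 (18.2%) differed at an adjusted p under 0.05, and these genes are referred to as called. Under miR-365, 1934 genes (9.7%) were higher and 1699 genes (8.52%) were lower than under miR-145. Of these, 567 were higher and 680 lower by at least 1.5-fold. The median difference over all genes was −0.05. Without miR-145 replicate 3 the number of called genes was 3246, and without miR-365 replicate 3 it was 1978, the smallest number with any array left out. Without miR-365 replicate 1, 2 or 3, the numbers higher and lower were 1290 and 1375, 1615 and 1448, and 971 and 1007. Without miR-145 replicate 1, 2 or 3 they were 1878 and 1368, 1461 and 1351, and 1543 and 1703. Counts of gene lists in these fits are to be read against these numbers. With the replicate number as a block the number of called genes was 4668, of which 2446 were higher and 2222 lower under miR-365.

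**Figure D1:**
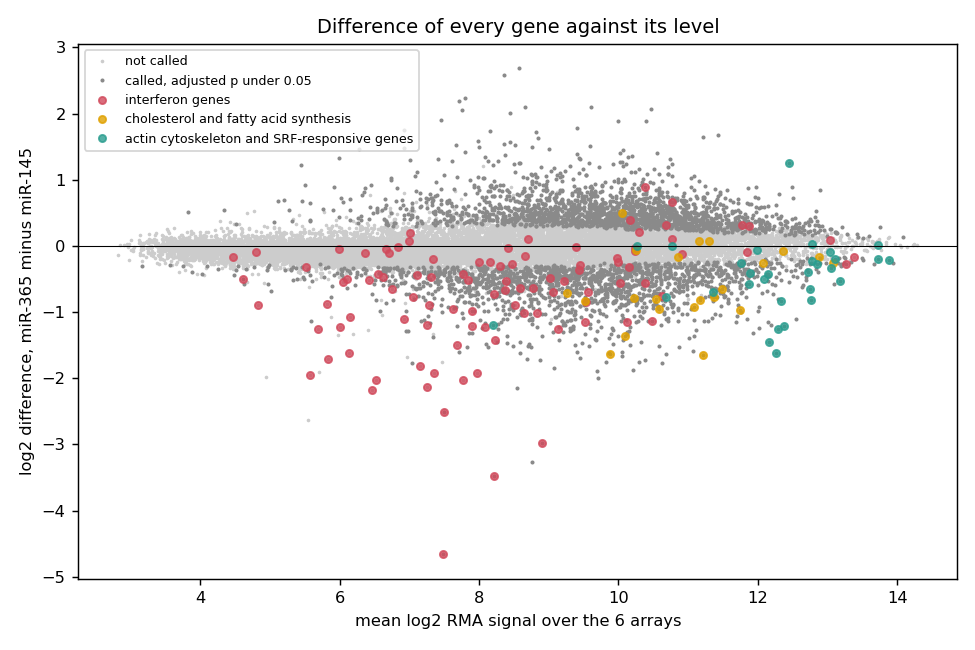
Difference of each gene (log2, miR-365 minus miR-145, vertical axis) against its mean log2 signal over the 6 arrays (horizontal axis), 1 point per gene. Dark points are called at an adjusted p under 0.05. Interferon genes spread below 0 to −4.66, but most of them are not called, while cholesterol synthesis and actin genes lie mostly between 0 and −1.7 with many called.

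The largest increases under miR-365 relative to miR-145 were of 1.72 to 2.69 log2 units. Cxcl13, a chemokine that attracts B cells, was at 9.19, 10.32 and 10.23 in the miR-365 replicates and at 7.41, 7.17 and 7.11 in the miR-145 replicates, a 6.43-fold difference (log2 2.69 ± 0.25, adjusted p = 0.000155). The groups did not overlap, and the control mean of 7.53 lay near the miR-145 values. Cd53, a tetraspanin best known from leukocytes, was at 8.79, 8.76 and 9.19 under miR-365 and at 7.08, 6.59 and 6.39 under miR-145 (2.23 ± 0.18, adjusted p = 0.000101). Olr1, a scavenger receptor for oxidised LDL, differed by 2.19 ± 0.15 and Havcr2, the checkpoint receptor TIM-3, by 2.05 ± 0.26. Beside these genes, none of the 8 leukocyte markers was called in either direction by limma, nor was any at an unadjusted p under 0.05 (with the replicate block Cd68 was, at 0.33 and an adjusted p of 0.0294), and Ptprc, the pan-leukocyte gene for CD45, read 5.64, 5.57 and 5.70 under miR-365 and 5.69, 5.55 and 5.84 under miR-145. Among the other large increases were Pdcd4, an inhibitor of translation initiation (3.70-fold), Calcrl, the receptor for CGRP and adrenomedullin (3.46-fold), Tnfrsf23, a decoy receptor for TRAIL (3.69-fold), Gsta4, a glutathione transferase (4.19-fold), Anxa8, an annexin (4.27-fold) and Car8, a carbonic anhydrase-related protein (4.27-fold). For Pdcd4, Gsta4, Anxa8 and Car8 the control mean (9.99, 11.47, 9.99 and 9.31) lay between the group means or near the miR-365 level, and the lowest value was miR-145 replicate 3. Prg4, the joint lubricant lubricin, Prr9, Prrg4, Prl2c5 and 1700007K13Rik completed the 15 largest increases. Prl2c5 belongs to a family of near-identical prolactin-like genes, so its probes may read several of them.

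The 15 largest decreases under miR-365 held 4 interferon genes and Cxcl10, described further on, and 10 other genes. Rell1, a membrane protein related to the TNF receptor RELT, read 8.38, 9.10 and 8.65 under miR-365, against 10.69, 10.75 and 10.66 under miR-145 and a control mean of 10.52 (−1.99 ± 0.15, 3.97-fold lower, adjusted p = 8.81e-05). Golm2, a Golgi membrane protein, read 8.87, 9.13 and 8.84 under miR-365 and 10.65, 10.69 and 10.76 under miR-145, with a control mean of 10.93 (−1.75 ± 0.10, adjusted p = 4.94e-05). Suclg2, a subunit of the citric acid cycle enzyme succinyl-CoA ligase, differed by −1.85 ± 0.15. In all 3 genes the miR-145 arrays lay near the control mean and the miR-365 arrays well below it. The same order held for 2610507B11Rik (−1.77), Dennd6a, an exchange factor for Rab14 (−1.73), and Neto2, an auxiliary subunit of kainate receptors (−1.76). For Edn1, the vasoconstrictor endothelin 1, the arrays read 8.30, 6.91 and 7.20 under miR-365 and 9.52, 9.30 and 10.05 under miR-145, and the control mean of 8.65 lay between the groups (−2.15 ± 0.31, 4.45-fold lower, adjusted p = 0.00148). Crim1, a membrane protein that binds BMPs (−1.90), Mcam, the adhesion molecule CD146 (−1.87), and the orphan receptor Gpr176 (−1.75) also had a miR-145 mean above the control mean and a miR-365 mean below it.

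The largest decreases under miR-365 were of interferon genes, and their size was set largely by 1 miR-145 array. Of 99 measured genes of the 6 interferon lists, 6 were called higher (6.06%) and 8 lower (8.08%), no larger shares than among all genes, with a median difference of −0.53. Without miR-145 replicate 3 the median was −0.09, and 22 genes were called lower (8.54% of all genes were) and 9 higher (7.74% of all genes were). With the replicate number as a block, 6 were called higher and 18 lower, where 2446 and 2222 of all 19938 genes were. Leaving out another array also moved the number called lower by more than 1.5 times, to 3 without miR-365 replicate 1, 4 without miR-365 replicate 2 or 3, 13 without miR-145 replicate 1 and 16 without miR-145 replicate 2. The number called higher was 3 without miR-365 replicate 1 or 3. Averaged over the 99 genes, the level was 7.87, 7.88 and 7.95 in the miR-365 replicates and 8.10, 8.04 and 9.73 in the miR-145 replicates, against 7.75 to 7.83 in the control. All 3 miR-145 arrays thus lay above all 3 miR-365 arrays, replicates 1 and 2 by a small margin and replicate 3 by a wide one. The leukocyte marker mean of miR-145 replicate 3, at 6.47, lay within the range of the miR-365 arrays.

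**Figure D2:**
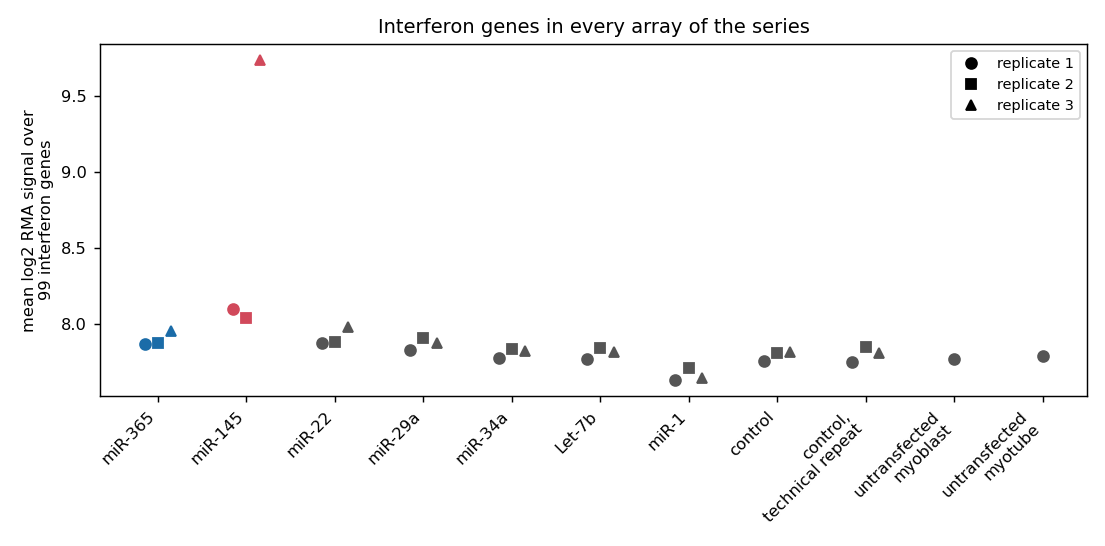
Mean log2 signal over the 99 interferon genes (vertical axis) in each array of the series, 1 point per array, with marker shape for the replicate number. The miR-365 arrays lie at 7.87 to 7.95, miR-145 replicates 1 and 2 at 8.10 and 8.04, and miR-145 replicate 3 at 9.73, above every other array.

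Most antiviral effectors were not called, although their median difference was negative. This class of 55 genes joins 35 effectors, 6 interferon-induced GTPases and 15 genes of ubiquitin and ADP-ribose handling, with 1 gene in more than 1 list. By limma 0 were called higher and 5 lower (9.09%, against 8.52% of all genes), or 0 and 17 at an unadjusted p under 0.05, with a median of −0.87, and 24 did not overlap between the groups in that direction (18.5% of all genes did so). Without miR-145 replicate 3, 17 were called lower and 2 higher, with the replicate block 13 and 0, and without any other single array between 1 and 11 were called lower. Of all genes, 8.54% were called lower without miR-145 replicate 3, and 2222 of 19938 with the block. miR-145 replicate 3 lay above all 3 miR-365 arrays for 55 of 55 genes and by more than 1 log2 unit for 47, while replicates 1 and 2 did so for 31 and 29 genes, and by more than 1 unit for 4 genes each. The median distance to the miR-365 mean was 2.17 for replicate 3 and 0.18 for the mean of replicates 1 and 2.

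Ifit3, an RNA-binding antiviral protein, had the largest difference of any called gene. It read 4.91, 5.30 and 5.25 under miR-365, against 8.53, 8.33 and 12.59 under miR-145, and 5.32 on average in the control. Every miR-145 array was far above every miR-365 array, and the miR-365 arrays were at the control level. The difference was −4.66 ± 0.89 (adjusted p = 0.00546) and −3.28 ± 0.13 without miR-145 replicate 3 (adjusted p = 2.23e-05). No fold is given because the miR-365 values lie under the floor, and probes for Ifit3 may also read its close copy Ifit3b. Ifit1, a sensor of foreign RNA 5′ ends, read 7.18, 7.24 and 7.82 under miR-365 and 9.27, 8.98 and 12.94 under miR-145, with a control mean of 6.92. The groups did not overlap, and miR-365 replicate 3 sat above the other miR-365 arrays. The difference of −2.98 ± 0.82, or 7.92-fold, had an adjusted p of 0.0307.

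Usp18, the protease that removes Isg15 and damps the interferon receptor, read 6.46, 6.39 and 6.56 under miR-365 and 8.78, 8.12 and 12.95 under miR-145 (−3.48 ± 0.96, adjusted p = 0.0315). Rtp4, an interferon-induced chaperone of receptors, read 6.18, 6.35 and 6.19 under miR-365 and 7.61, 7.58 and 11.03 under miR-145 (−2.50 ± 0.73, adjusted p = 0.0398). Both were at the control level under miR-365 (control means 6.53 and 6.20) and above it in every miR-145 array. The chemokine Cxcl10, which draws T cells to sites of infection, read 7.06, 7.14 and 7.20 under miR-365 and 9.97, 8.5 and 12.72 under miR-145, with a control mean of 7.10 (−3.26 ± 0.79, 9.59-fold lower, adjusted p = 0.0172). The 3 miR-145 arrays were spread widely, with replicate 3 highest and replicate 2 lowest. The calls of Usp18, Ifit1 and Rtp4 were lost whenever 1 miR-365 array was left out (adjusted p 0.0707 to 0.0916, 0.073 to 0.0882 and 0.0761 to 0.114), and that of Cxcl10 without miR-365 replicate 1 or 3 (0.0514 and 0.0597). Without miR-145 replicate 3 these 4 genes were called, at −2.10 ± 0.33 for Cxcl10 (adjusted p = 0.00328), −1.98 ± 0.17 for Usp18 (adjusted p = 0.000285), −1.72 ± 0.18 for Ifit1 (0.000638) and −1.36 ± 0.09 for Rtp4 (0.000137).

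**Figure D3:**
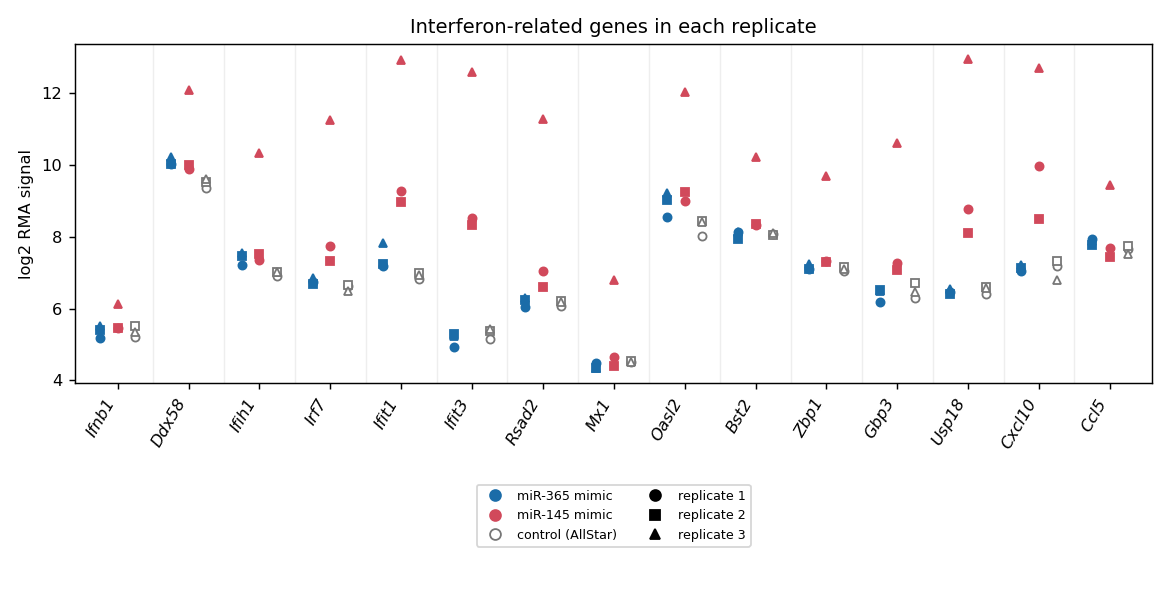
Log2 signal of 15 interferon-related genes in each replicate of miR-365 (blue), miR-145 (red) and control (open grey) cells, with marker shape for the replicate number. miR-145 replicate 3 (red triangle) is the highest point for every gene shown. For Ifit3, Ifit1, Usp18 and Cxcl10 miR-145 replicates 1 and 2 also lie well above the miR-365 points.

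Other effectors had small gaps in miR-145 replicates 1 and 2 and were not called over all 6 arrays. Rsad2, the antiviral enzyme viperin, read 6.03, 6.24 and 6.29 under miR-365 and 7.05, 6.60 and 11.28 under miR-145. Its difference of −2.12 ± 0.95 was not called (adjusted p = 0.166), and without miR-145 replicate 3 it was −0.64 ± 0.14 (0.0149). The guanylate-binding GTPase Gbp3 read 6.17, 6.52 and 6.49 under miR-365 and 7.26, 7.06 and 10.62 under miR-145 (−1.92 ± 0.74, adjusted p = 0.109). Gbp3 was called without miR-145 replicate 3 (−0.77 ± 0.13, 0.00399) and with the replicate block (0.0372). In both genes all miR-145 arrays lay above all miR-365 arrays, and the gap to replicates 1 and 2 was a small part of the gap to replicate 3.

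In further interferon genes only miR-145 replicate 3 stood apart. Oasl2, a 2-5A synthetase-like protein, read 8.56, 9.04 and 9.21 under miR-365, against 9.0, 9.24 and 12.04 under miR-145 (adjusted p = 0.261). Mx1, a dynamin-like GTPase that blocks viruses, read 4.48, 4.35 and 4.34 under miR-365 and 4.65, 4.40 and 6.80 under miR-145 (adjusted p = 0.257). Bst2, the tetherin that holds budding virus, read 8.15, 7.93 and 8.14 under miR-365 and 8.33, 8.36 and 10.23 under miR-145 (adjusted p = 0.177). Zbp1, a sensor of Z-form nucleic acids, read 7.10, 7.09 and 7.24 under miR-365 and 7.32, 7.31 and 9.69 under miR-145 (adjusted p = 0.247). In these 4 genes miR-145 replicates 1 and 2 overlapped the miR-365 arrays or lay close above them, and replicate 3 stood well above. The transmembrane restriction factor Ifitm3, at high levels in all arrays, read 13.02, 13.18 and 13.18 under miR-365 and 13.36, 13.31 and 13.54 under miR-145 (−0.28 ± 0.07, adjusted p = 0.018). Its call was lost without miR-365 replicate 1 (0.0614). Eif2ak2, the kinase PKR, was chosen after its values were seen because it ran the other way in miR-145 replicates 1 and 2. It read 9.31, 9.29 and 9.56 under miR-365, 8.73, 8.88 and 10.62 under miR-145 and 8.56 in the control. Both of these replicates lay below all miR-365 arrays, as they did for 17 of the 99 interferon genes in all. Eif2ak2 was above the control in every array of both mimics, and without miR-145 replicate 3 it was higher under miR-365 (0.58 ± 0.11, adjusted p = 0.00803).

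Sensors and signalling genes were mixed. Of 21 measured, which include Zbp1 and Eif2ak2, 6 were called higher under miR-365 (28.6%, against 9.7% of all genes) and 1 lower (4.76%, against 8.52% of all genes), while 13 had a negative difference. miR-145 replicate 3 lay above all miR-365 arrays for 12 of the 21. Without miR-365 replicate 1 or 3 the number called higher was 3. Sting1, the adaptor for cytosolic DNA, read 10.80, 10.62 and 11.04 under miR-365 and 10.06, 9.77 and 9.96 under miR-145 (0.89 ± 0.12, 1.86-fold higher, adjusted p = 0.000977). Mavs, the adaptor for RIG-I and MDA5, read 11.09, 10.96 and 11.25 under miR-365 and 10.51, 10.41 and 10.39 under miR-145 (0.66 ± 0.09, 1.58-fold higher, adjusted p = 0.000931). For both, the miR-145 arrays lay at the control mean (10.07 and 10.44) and the miR-365 arrays above it, and miR-145 replicate 3 was no exception. The receptor chains Ifnar1 (0.39 ± 0.09, adjusted p = 0.0163) and Ifnar2 (0.32 ± 0.08, adjusted p = 0.0204) and the kinase Jak1 (0.32 ± 0.06, adjusted p = 0.00708) were also higher under miR-365. Ifnar1 lost its call without miR-365 replicate 1 or 3 or miR-145 replicate 2 (adjusted p 0.0502 to 0.0815), and Ifnar2 without miR-365 replicate 1 or 3 (0.067 and 0.0877).

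Other members of the same list were lower under miR-365. Irf7, the factor that amplifies interferon production, read 6.74, 6.70 and 6.85 under miR-365 and 7.74, 7.34 and 11.27 under miR-145, with a control mean of 6.60. It was not called (−2.02 ± 0.80, adjusted p = 0.116) except with the replicate block (0.0407) or without miR-145 replicate 3 (−0.78 ± 0.12, 0.00367). Irf9, a DNA-binding factor of the interferon response, read 8.32, 8.03 and 8.06 under miR-365, 8.71, 8.66 and 10.07 under miR-145 and 7.72 in the control. Irf9 was the only gene of this list called lower over the 6 arrays (−1.01 ± 0.31, adjusted p = 0.0493), and the call was lost without any 1 miR-365 array (0.0812 to 0.145). The list held 3 genes called lower with the replicate block or without miR-145 replicate 2 or 3, and 2 without miR-145 replicate 1. The sensor Ifih1 read 7.22, 7.45 and 7.56 under miR-365 and 7.34, 7.51 and 10.34 under miR-145 (adjusted p = 0.333). Ddx58 read 10.02, 10.04 and 10.24 under miR-365 and 9.91, 9.99 and 12.10 under miR-145 (−0.56 ± 0.46, adjusted p = 0.456), and its difference was 0.15 without miR-145 replicate 3. For both sensors miR-145 replicates 1 and 2 overlapped the miR-365 arrays or lay below them, and all 6 arrays were above the control mean (6.99 and 9.51).

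The interferon messages themselves were near the floor. Ifnb1, the first interferon made by infected fibroblasts, read 5.17, 5.41 and 5.51 under miR-365, against 5.46, 5.46 and 6.14 under miR-145 and 5.35 in the control (−0.32 ± 0.18, adjusted p = 0.262). Of 10 interferon genes 1, Ifna12, was called lower (10%, against 8.52% of all genes; −0.50 ± 0.11, adjusted p = 0.0114) at levels of 4.25 to 5.03, and Ifna genes are so alike that their probes may not separate them. Of 13 antigen presentation genes 1, the peptide-trimming enzyme Erap1, was called lower (7.69%, against 8.52% of all genes). It read 8.52, 8.41 and 8.45 under miR-365 and 8.97, 9.04 and 9.27 under miR-145 (−0.63 ± 0.10, adjusted p = 0.00256), with a control mean of 8.84 between them.

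Promoters are shown for the 3 interferon-regulated genes with the widest gap that the promoter table holds. The interferon-stimulated response element, which Irf9 helps to bind, was searched as GAAA, any 2 bases and GAAA again, or the reverse complement of this, in the 300 bases around each start. It was found in a promoter of 17 of 40 effector-class genes (42.5%) and of 1079 of 27025 genes of the promoter table (3.99%). These genes were listed as induced by interferon, so their share is no evidence about the difference between the groups. Each sequence below is the 250 bases before the RefSeq start, on the gene's own strand, in build GRCm38.p6, with matches in capitals. Ifit3 (chr19:34583279-34583528, plus strand) has matches starting 156 and 122 bases upstream, Ifit1 (chr19:34640639-34640888, plus strand) 104 and 85 bases upstream, and Cxcl10 (chr5:92348890-92349139, minus strand) 213 bases upstream.
Ifit3: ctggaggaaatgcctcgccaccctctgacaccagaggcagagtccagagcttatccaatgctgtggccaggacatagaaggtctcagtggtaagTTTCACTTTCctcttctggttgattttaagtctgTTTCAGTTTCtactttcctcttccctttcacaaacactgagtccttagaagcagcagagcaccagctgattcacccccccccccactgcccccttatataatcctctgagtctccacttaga
Ifit1: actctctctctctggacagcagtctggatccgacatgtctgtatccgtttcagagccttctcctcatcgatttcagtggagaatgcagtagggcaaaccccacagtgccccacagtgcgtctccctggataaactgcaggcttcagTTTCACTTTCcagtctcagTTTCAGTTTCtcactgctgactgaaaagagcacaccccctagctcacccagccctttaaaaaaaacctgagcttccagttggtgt
Cxcl10: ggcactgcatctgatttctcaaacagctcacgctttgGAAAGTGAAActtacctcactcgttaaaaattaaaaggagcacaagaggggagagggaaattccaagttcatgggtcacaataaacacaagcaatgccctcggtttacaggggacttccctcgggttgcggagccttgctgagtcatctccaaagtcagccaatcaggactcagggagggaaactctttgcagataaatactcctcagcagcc

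Among 26 chemokines and NF-kB targets, 2 were called higher (7.69%, against 9.7% of all genes) and 4 lower (15.4%, against 8.52%), Cxcl10 included. The number called lower was 1 without miR-365 replicate 3, and the number called higher was 1 without miR-365 replicate 1 or 3 or miR-145 replicate 2 or 3. Ccl5, a chemokine induced by interferon and NF-kB, read 7.94, 7.76 and 7.87 under miR-365 and 7.69, 7.45 and 9.44 under miR-145. The difference of −0.34 ± 0.41 was not called (adjusted p = 0.623), and without miR-145 replicate 3 it turned to 0.29 (0.107), miR-145 replicates 1 and 2 lying below all miR-365 arrays. Tnfaip3, the feedback inhibitor A20, was lower under miR-365 (−0.71 ± 0.15, adjusted p = 0.008), and Nfkb2, the precursor of the p52 subunit, was higher (0.68 ± 0.10, adjusted p = 0.00187). Nfkbia, the inhibitor of NF-kB, was higher by 0.44 ± 0.14 (adjusted p = 0.0484) and lost the call without miR-365 replicate 1 or 3 or miR-145 replicate 2 or 3 (0.101 to 0.168). The neutrophil chemokine Cxcl2 was lower by a difference of −0.31 ± 0.09 (adjusted p = 0.0381) at levels under the floor, and lost the call without any 1 array (0.0605 to 0.139).

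Some messages ascribed to miR-365 were lower under its own mimic. Of 16 measured, 5 were called lower (31.2%, against 8.52% of all genes), 1 higher and 10 in neither direction, with a median of −0.30. Bcl2, the mitochondrial survival protein, read 9.52, 9.43 and 9.43 under miR-365 and 10.64, 10.77 and 10.95 under miR-145, with a control mean of 10.49 (−1.33 ± 0.10, 2.51-fold lower, adjusted p = 7.61e-05). Ccnd1, the cyclin that drives cells from G1 into S phase, read 11.20, 11.09 and 11.04 under miR-365 and 12.36, 12.01 and 12.41 under miR-145, with a control mean of 12.05 (−1.15 ± 0.10, adjusted p = 0.000137). Timp3, an inhibitor of matrix metalloproteases, read 12.08, 11.02 and 11.09 under miR-365 and 12.82, 12.46 and 12.63 under miR-145, with a control mean of 12.73 (−1.24 ± 0.23, adjusted p = 0.00491). In these genes the groups did not overlap and the miR-145 arrays stayed near the control, although miR-365 replicate 1 was close to the miR-145 arrays for Timp3. The transcription factor Nfib (−1.61 ± 0.23) and the receptor adaptor Arrb2 (−1.28 ± 0.11) had the same order. Hdac4, a histone deacetylase of muscle, read 9.42, 9.63 and 9.53 under miR-365 and 9.83, 9.79 and 9.55 under miR-145, overlapped and was not called (adjusted p = 0.245). Both this list and the next were drawn up with results of these data known, so their direction is no independent evidence.

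Messages ascribed to miR-145 were more often higher under miR-365, that is lower under the miR-145 mimic. Of 46 measured, 14 were called higher (30.4%, against 9.7% of all genes) and 5 lower (10.9%, against 8.52%), with a median of 0.09. Fscn1, which bundles actin in cell protrusions, read 13.10, 13.01 and 13.09 under miR-365 and 12.01, 12.05 and 11.39 under miR-145, with a control mean of 13.22 (1.25 ± 0.14, 2.38-fold higher, adjusted p = 0.000426). Nras, a small GTPase of growth signalling, read 11.74, 11.46 and 11.64 under miR-365 and 10.67, 10.61 and 10.40 under miR-145, with a control mean of 11.03 (1.05 ± 0.10, adjusted p = 0.000147). For Fscn1 the miR-365 arrays were at the control level, whereas for Nras the control lay between the groups. The integrin subunit Itgb8 (0.97 ± 0.11) was also higher under miR-365. Cbfb, the partner of Runx factors, ran the other way at 9.18, 9.37 and 9.24 under miR-365, 10.31, 10.37 and 10.18 under miR-145 and 10.71 in the control (−1.02 ± 0.09, adjusted p = 0.000146). Several textbook targets were not called. Irs1, the insulin receptor substrate, read 10.66, 11.15 and 10.95 under miR-365 and 11.11, 10.95 and 10.90 under miR-145 (adjusted p = 0.748), and Klf4 read 10.00, 9.52 and 9.81 under miR-365 and 9.86, 9.79 and 9.68 under miR-145 (adjusted p = 0.999). Klf5 (0.17 ± 0.09), Cdk6 (0.15 ± 0.07) and Myc (−0.32 ± 0.18) had adjusted p values of 0.249, 0.191 and 0.269, and Myc was called with the replicate block (0.00875). For Cdk6 both groups, at 11.12 to 11.24 and 10.99 to 11.05, lay below the control mean of 11.70.

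Cholesterol synthesis was lower under miR-365. Of 22 genes of cholesterol and fatty acid synthesis, 13 were called lower (59.1%, against 8.52% of all genes) and 1 higher, with a median of −0.75, and 13 were called lower in each of the 6 fits without 1 array. Nsdhl, a sterol dehydrogenase of the late pathway, read 10.19, 10.55 and 10.43 under miR-365 and 12.06, 12.02 and 12.06 under miR-145, with a control mean of 11.77 (−1.66 ± 0.09, 3.15-fold lower, adjusted p = 4.94e-05). Sc5d, which sets the double bond of the sterol ring, read 8.96, 9.13 and 9.11 under miR-365 and 10.75, 10.63 and 10.73 under miR-145, with a control mean of 10.52 (−1.64 ± 0.09, adjusted p = 4.94e-05). Cyp51, which removes a methyl group from lanosterol, differed by −1.37 ± 0.10, and Idi1, an early isomerase of the pathway, by −0.96 ± 0.08. Srebf2, the transcription factor that switches on this pathway when sterols are low, read 11.22, 11.45 and 11.13 under miR-365 and 12.26, 12.23 and 12.21 under miR-145 (−0.97 ± 0.08, adjusted p = 0.000108). The miR-145 arrays lay at or slightly above the control and the miR-365 arrays below it for all 5. The fatty acid genes Fasn, Acaca, Acly, Scd1 and Scd2 were not called, with differences of −0.25 to 0.07, and Dhcr7, a late cholesterol enzyme, was the gene called higher (0.50 ± 0.11, adjusted p = 0.0123), though not without miR-365 replicate 3. Those 6 genes were chosen after their values were seen.

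Genes of a list of actin cytoskeleton genes and genes ascribed to serum response factor were often lower under miR-365 as well. The list mixes both kinds, and response to the factor was not tested. Of 30 measured, 21 were called lower (70%, against 8.52% of all genes) and 1, Fscn1, higher, with a median of −0.40, and leaving out 1 array gave 16 to 23 called lower. Tagln, the smooth muscle actin-binding protein SM22, read 11.82, 11.42 and 11.04 under miR-365 and 12.63, 12.90 and 13.10 under miR-145, with a control mean of 12.43 (−1.45 ± 0.17, 2.73-fold lower, adjusted p = 0.000566). Cnn1, a calponin of contractile cells, read 11.88, 11.68 and 11.42 under miR-365 and 12.78, 12.86 and 13.09 under miR-145, with a control mean of 12.45 (−1.25 ± 0.11, adjusted p = 0.000143). Ccn2, a matricellular growth factor, read 12.25, 11.002 and 11.12 under miR-365 and 13.13, 12.75 and 13.32 under miR-145, with a control mean of 12.29 (−1.61 ± 0.28, adjusted p = 0.00333). Here the control mean lay between the groups, with miR-145 above it and miR-365 below it, although miR-365 replicate 1 was close to the control for Ccn2. The LIM protein Fhl1 (−1.21 ± 0.12) had the same order, and Srf itself differed by −0.69 ± 0.13 (adjusted p = 0.00505) at 11.36, 10.85 and 10.82 under miR-365 and 11.73, 11.61 and 11.76 under miR-145.

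**Figure D4:**
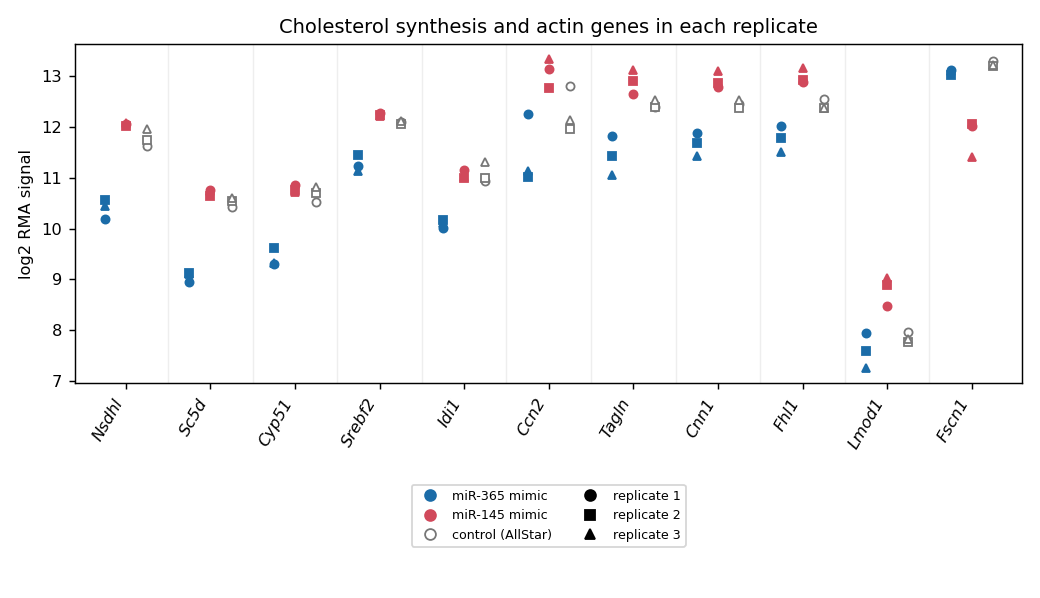
Log2 signal of 5 cholesterol synthesis genes and 6 actin cytoskeleton genes in each replicate of miR-365 (blue), miR-145 (red) and control (open grey) cells. In the cholesterol genes the miR-145 points lie near the control and the miR-365 points about 1 to 1.7 units lower, in Ccn2, Tagln, Cnn1, Fhl1 and Lmod1 the control lies between the groups or near the miR-365 points, and in Fscn1 the miR-145 points are the lowest.

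The CArG box, the site of serum response factor, was searched over the same 300-base window and both strands. It was found in a promoter of 6 of 27 genes of this list (22.2%) and of 488 of 27025 genes of the promoter table (1.81%). The list includes genes chosen as ascribed to the factor, so its share is no evidence about the difference between the groups. The sterol regulatory element, searched as TCACNCCAC or GTGGNGTGA, was found for 1 of 17 cholesterol list genes (5.88%) and for 388 of 27025 (1.44%). The promoter of Srf is shown because the gene for the factor holds its own box. The 250 bases before its RefSeq start (chr17:46556163-46556412, minus strand, GRCm38.p6) hold CArG boxes, in capitals, starting 82 and 62 bases upstream.
Srf: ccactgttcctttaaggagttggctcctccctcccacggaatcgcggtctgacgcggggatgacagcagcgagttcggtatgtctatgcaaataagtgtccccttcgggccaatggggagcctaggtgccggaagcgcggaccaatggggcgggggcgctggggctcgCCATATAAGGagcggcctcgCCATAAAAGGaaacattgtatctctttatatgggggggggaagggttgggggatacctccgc

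Of 26 TGF-beta, BMP and Smad genes, 5 were called higher (19.2%, against 9.7% of all genes) and 8 lower (30.8%, against 8.52%), with a median of −0.03. Without miR-365 replicate 3 these numbers were 2 and 5, where 971 and 1007 of all genes were called. Without miR-365 replicate 1 the number higher was 3 (1290 of all genes), and without miR-145 replicate 2 the number lower was 5 (1351 of all genes). The receptor Tgfbr1 read 10.13, 9.91 and 10.12 under miR-365, against 9.40, 9.18 and 8.94 under miR-145 (0.88 ± 0.12, 1.84-fold higher, adjusted p = 0.00125), and the control mean of 9.47 lay near the miR-145 arrays. Follistatin (Fst), which neutralises activins and myostatin, read 9.89, 9.52 and 9.15 under miR-365 and 10.56, 10.50 and 10.79 under miR-145 (−1.10 ± 0.17, adjusted p = 0.00176). Bmp4, a secreted ligand, differed by −0.93 ± 0.12 and the receptor Bmpr2 by −0.70 ± 0.06. The activin subunit Inhba read 11.95, 11.12 and 11.14 under miR-365 and 11.95, 12.03 and 12.39 under miR-145 (−0.72 ± 0.20, adjusted p = 0.0331), and its call was lost without miR-365 replicate 2 or 3 or miR-145 replicate 2 or 3 (0.0622 to 0.134). Of 36 collagen and matrix genes 7 were called in each direction (19.4%, against 9.7% higher and 8.52% lower among all genes). Thbs2, an anti-angiogenic thrombospondin, read 9.86, 10.11 and 9.62 under miR-365 and 11.65, 11.57 and 11.25 under miR-145 (−1.63 ± 0.14, 3.09-fold lower, adjusted p = 0.000108). Col8a1, a short-chain collagen, differed by −1.14 ± 0.12 and the protease Adamts1 by −1.04 ± 0.10, while Mmp9, a gelatinase, read 8.47, 7.41 and 7.70 under miR-365 and 6.75, 6.98 and 6.95 under miR-145 (0.97 ± 0.22, adjusted p = 0.0135). The number of matrix genes called higher fell to 2 without miR-365 replicate 3, 3 without miR-365 replicate 2 or miR-145 replicate 3, and 4 without miR-145 replicate 1. In the same order, 971, 1615, 1543 and 1878 of all genes were called higher in these fits.

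Many genes of S phase and mitosis were lower under miR-365 by small amounts. Of 38 genes of DNA replication and S phase, 22 were called lower (57.9%, against 8.52% of all genes) and 0 higher, with a median of −0.37. Of 39 genes of G2 and mitosis, 23 were called lower (59%) and 0 higher, also with a median of −0.37. These counts changed with single arrays, as did the number of all genes called lower, which was 1699 over the 6 arrays. Without miR-365 replicate 3 the counts were 8 and 6, where 1007 of all genes were called lower. Without miR-365 replicate 1 the mitotic count was 12 (1375 of all genes). Without miR-145 replicate 1 the replication count was 14 (1368 of all genes), and without miR-145 replicate 2 the mitotic count was 12 (1351 of all genes). Mcm5, part of the replicative helicase, read 10.10, 10.52 and 9.80 under miR-365 and 11.40, 11.20 and 11.23 under miR-145, with a control mean of 11.45 (−1.14 ± 0.15, 2.20-fold lower, adjusted p = 0.000991). Cdc6, which loads that helicase, differed by −0.91 ± 0.12, its partner at the fork Cdc45 by −0.63 ± 0.11, and the cyclin Ccne1 by −0.59 ± 0.09. Nek2, a kinase that separates centrosomes, read 9.36, 9.64 and 8.94 under miR-365 and 10.76, 10.67 and 10.61 under miR-145, with a control mean of 10.57 (−1.36 ± 0.15, adjusted p = 0.000384). The miR-145 arrays of Mcm5 and Nek2 were near the control, and miR-365 replicate 3 was the lowest array for both. The kinase Aurkb differed by −0.61 ± 0.11. Tk1, Cdc25c and Nuf2 lost their calls without miR-365 replicate 3 (adjusted p 0.0506, 0.0545 and 0.0522), and Cenpf without miR-365 replicate 1 or 3 or miR-145 replicate 2 (0.0634 to 0.0813). Among 21 G1 genes, 5 were called lower (23.8%, against 8.52% of all genes) and 1 higher (4.76%, against 9.7%). With the replicate block 8 were called lower and 2 higher, where 2222 and 2446 of all genes were. Without miR-145 replicate 1, 2 were called higher, where 1878 of all genes were. Besides Ccnd1, the genes called lower over the 6 arrays included the inhibitor Cdkn2d (−1.07 ± 0.15), the ubiquitin ligase subunit Skp2 (−0.88 ± 0.08) and the kinase Cdk2 (−0.70 ± 0.12). The repressive factor E2f5 was the one called higher (0.91 ± 0.10).

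p53 targets and apoptosis genes were more often higher under miR-365, with 10 of 25 called higher (40%, against 9.7% of all genes) and 3 lower (12%, against 8.52%) and a median of 0.27. With the replicate block 5 were called lower. Sesn2, a stress protein that restrains mTORC1, read 10.94, 10.72 and 11.17 under miR-365 and 9.84, 9.86 and 9.90 under miR-145, with a control mean of 9.72 (1.08 ± 0.11, 2.11-fold higher, adjusted p = 0.000238). Trp53inp1, a p53-induced protein, read 10.82, 10.79 and 11.31 under miR-365 and 10.03, 10.03 and 10.00 under miR-145, with a control mean of 9.73 (0.95 ± 0.13, adjusted p = 0.000991). For both genes the miR-365 arrays stood apart and the miR-145 arrays were close to the control. Bak1, a pore-forming killer protein, differed by 0.85 ± 0.07 with the control mean of 11.76 nearer to miR-365, and the death receptor Tnfrsf10b by 0.84 ± 0.12 with the control mean of 10.70 at the miR-145 level. Bcl2 was the member with the largest decrease, as described above.

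Of 23 insulin and growth factor genes, 8 were called higher (34.8%, against 9.7% of all genes) and 2 lower (8.7%, against 8.52%). The number called higher was 4 without miR-365 replicate 3, and the number called lower was 1 without miR-365 replicate 2 or 3 or miR-145 replicate 2. Igfbp3, which binds insulin-like growth factors, read 9.20, 10.05 and 9.76 under miR-365 and 7.89, 8.29 and 7.92 under miR-145, with a control mean of 7.76 (1.64 ± 0.20, 3.11-fold higher, adjusted p = 0.000535). Akt1, a central kinase of insulin signalling, read 12.72, 12.68 and 12.71 under miR-365 and 12.11, 11.96 and 11.67 under miR-145, with a control mean of 12.62 (0.79 ± 0.10, adjusted p = 0.000566). The receptor Igf1r was lower under miR-365 (−0.60 ± 0.08, adjusted p = 0.00114). Igfbp4 was higher by 0.58 ± 0.17 (adjusted p = 0.0368) and lost its call without miR-365 replicate 1 or 3 or miR-145 replicate 1 or 3 (0.0747 to 0.104).

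Muscle genes showed a limited and array-dependent difference. Of 42 sarcomere genes, 10 were called lower (23.8%, against 8.52% of all genes) and 3 higher (7.14%, against 9.7%), with a median of −0.12. None was called higher without miR-365 replicate 1, miR-365 replicate 3 or miR-145 replicate 1. The number called lower was 20 without miR-145 replicate 1 and 6 without miR-365 replicate 1, miR-365 replicate 3 or miR-145 replicate 2. In the same order, 1368, 1375, 1007 and 1351 of all genes were called lower in these fits. Ldb3, a protein of the Z disc, read 8.78, 8.48 and 8.66 under miR-365 and 9.60, 9.84 and 9.98 under miR-145 (−1.17 ± 0.12, 2.25-fold lower, adjusted p = 0.00026). Actn2, the sarcomeric actinin, read 9.11, 8.57 and 8.61 under miR-365 and 9.31, 10.17 and 10.18 under miR-145 (−1.12 ± 0.23, adjusted p = 0.00748). Myom1, of the M band, differed by −0.82 ± 0.16. In Actn2 the miR-145 replicate 1 array was close to the miR-365 arrays, and the same array was the lowest of the miR-145 group for the giant protein Ttn and the muscle creatine kinase Ckm. Ttn (−0.80 ± 0.19, adjusted p = 0.0143) lost its call without miR-145 replicate 2 (0.0566). Ckm (−0.75 ± 0.21, adjusted p = 0.0348) lost its call without any 1 of 5 arrays, miR-145 replicate 1 being the exception (0.0736 to 0.116). Desmin (Des) was higher by 0.18 ± 0.05 (adjusted p = 0.0246), a call lost without any miR-365 array or miR-145 replicate 1 (0.0539 to 0.1).

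Of 28 myogenic and fusion genes, 4 were called higher (14.3%, against 9.7% of all genes) and 2 lower (7.14%, against 8.52%), or 6 and 4 with the replicate block, and 1 was called lower without miR-145 replicate 2. Musk, the kinase that organises the neuromuscular junction, read 10.33, 10.41 and 10.21 under miR-365 and 9.54, 9.34 and 8.48 under miR-145, with a control mean of 10.55 (1.20 ± 0.22, 2.30-fold higher, adjusted p = 0.00489). The helix-loop-helix inhibitors Id1 (0.68 ± 0.10) and Id2 (0.72 ± 0.09) were higher under miR-365, with control means of 10.71 and 12.61 between the groups. The laminin receptor subunit Itga7 was lower (−0.43 ± 0.08), as was the fetal receptor subunit Chrng (−0.46 ± 0.11, adjusted p = 0.0144), which lost its call without miR-145 replicate 2 (0.0614). Myod1, the master factor of this lineage, read 12.21, 12.32 and 12.12 under miR-365 and 12.01, 12.18 and 11.64 under miR-145 and was not called (adjusted p = 0.157).

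Glycolysis and hypoxia genes were lower under miR-365, with 14 of 27 called lower (51.9%, against 8.52% of all genes) and 1 higher (2 with the replicate block) and a median of −0.24. Without miR-365 replicate 3, 8 were called lower, where 1007 of all genes were. Slc16a3, a lactate exporter, read 8.67, 9.23 and 9.0 under miR-365 and 10.07, 10.63 and 10.48 under miR-145, with a control mean of 9.91 (−1.43 ± 0.17, 2.69-fold lower, adjusted p = 0.000497). Ndrg1, a hypoxia-induced protein, differed by −1.13 ± 0.12, the pyruvate dehydrogenase kinase Pdk1 by −0.90 ± 0.17, and the mitophagy protein Bnip3 by −0.88 ± 0.09. Egln3, an oxygen-sensing prolyl hydroxylase, ran the other way at 12.15, 12.21 and 12.43 under miR-365 and 10.88, 10.77 and 10.10 under miR-145, with a control mean of 11.80 (1.68 ± 0.18, 3.20-fold higher, adjusted p = 0.000262). Of 26 genes of oxidative phosphorylation none was called in limma, against 1 higher and 4 lower at an unadjusted p under 0.05. With other fits 2 were called lower with the replicate block and 1 without miR-365 replicate 2, and the median was −0.01.

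Of 15 genes of the microRNA pathway itself, 4 were called higher (26.7%, against 9.7% of all genes) and 2 lower (13.3%, against 8.52%). Without miR-365 replicate 1, 2 were called higher. Dicer1, which cuts microRNA precursors, read 11.07, 10.92 and 11.22 under miR-365 and 10.54, 10.47 and 10.49 under miR-145 (0.57 ± 0.09, 1.49-fold higher, adjusted p = 0.0018). The Argonaute-binding scaffold Tnrc6a read 11.07, 10.97 and 11.18 under miR-365 and 10.42, 10.40 and 10.37 under miR-145 (0.68 ± 0.08, adjusted p = 0.000435). Its relative Tnrc6c was lower, at 9.39, 9.15 and 8.92 under miR-365 and 10.31, 10.08 and 10.03 under miR-145 (−0.99 ± 0.13, adjusted p = 0.00082). The groups did not overlap for any of the 3. Ago1 was lower (−0.53 ± 0.12, adjusted p = 0.0108), and Prkra, a Dicer partner, was higher by 0.50 ± 0.12 (adjusted p = 0.0143) and lost its call without miR-365 replicate 1 (0.0523).

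Stress and ribosome genes showed small differences. Of 26 genes of the ATF4 and unfolded protein responses, 3 were called higher (11.5%, against 9.7% of all genes) and 7 lower (26.9%, against 8.52%), with a median of −0.09. The number called lower was 3 without miR-365 replicate 3 and 4 without miR-365 replicate 1 or miR-145 replicate 3. Dnajb9, an endoplasmic reticulum co-chaperone, was higher (0.71 ± 0.11, adjusted p = 0.00243), as was Edem1, which sends misfolded glycoproteins to degradation (0.43 ± 0.09, adjusted p = 0.00619). Sdf2l1, another reticulum chaperone (−0.54 ± 0.11), and the asparagine synthetase Asns (−0.38 ± 0.07) were lower. Of 26 ribosome biogenesis genes, 4 were called higher (15.4%, against 9.7% of all genes) and 1 lower (3.85%, against 8.52%), or 2 lower with the replicate block. Only 1 or 2 were called higher once any 1 array other than miR-145 replicate 1 was left out. Bop1, a factor of the large subunit, read 11.63, 11.70 and 11.67 under miR-365 and 11.05, 11.02 and 10.52 under miR-145, with a control mean of 11.72 (0.80 ± 0.13, 1.75-fold higher, adjusted p = 0.00209). Polr1b, a subunit of RNA polymerase I, was lower (−0.50 ± 0.10, adjusted p = 0.0071). The other 3 calls in this list, Npm1, Utp20 and Wdr12, with differences of 0.26 to 0.32, were lost when single arrays were left out (adjusted p 0.0532 to 0.149).

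**Figure D5:**
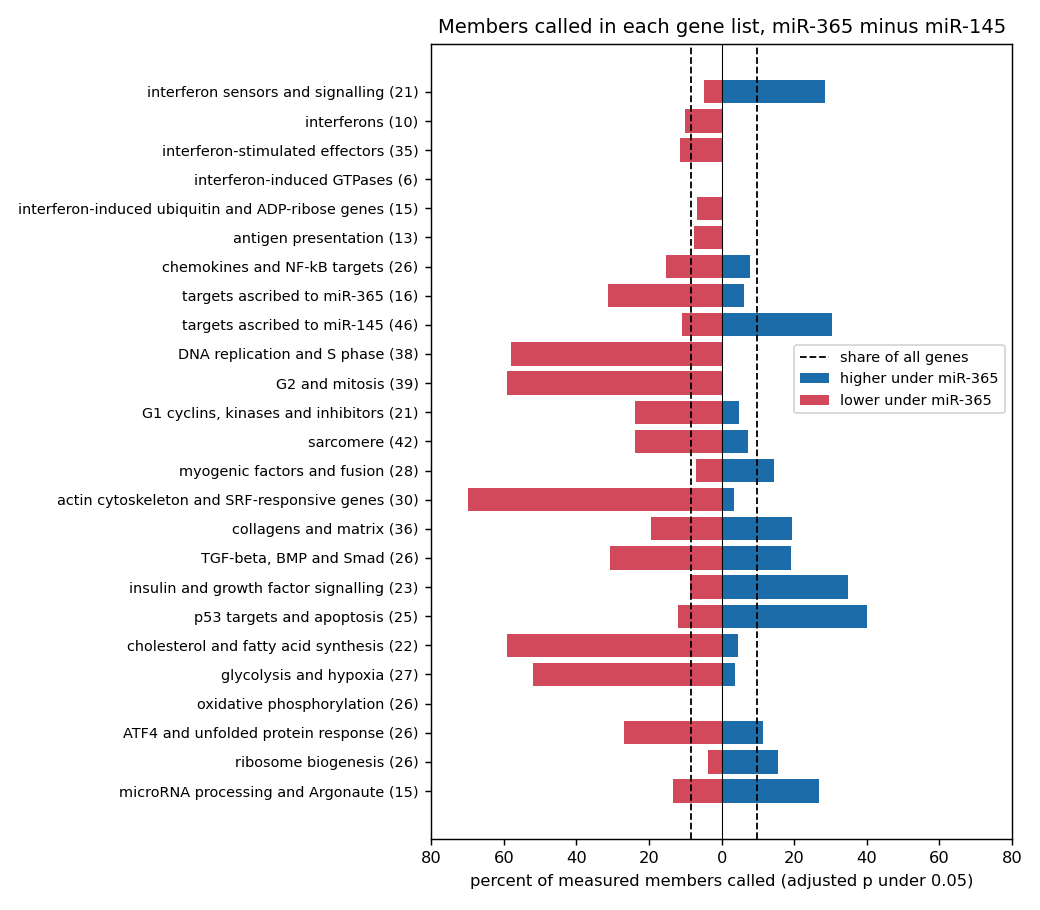
Percent of the measured members of each gene list (number in brackets) that were called higher (blue, to the right) or lower (red, to the left) under miR-365. Dashed lines mark the share of all genes called, 9.7% higher and 8.52% lower. The actin, cholesterol, S phase, mitosis and glycolysis lists reach 51.9% to 70% lower, and the list of p53 targets and apoptosis genes 40% higher.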

How the data were processed

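Log2 signals of 29 Affymetrix arrays were used as deposited. The submitters' processing notes name RMA and Affymetrix Expression Console 1.1. RMA corrects background, brings the arrays to one distribution and summarises each probe set as a single log2 value. A genome build and filters are not given in the sources used here. The number of arrays limits the precision.

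The platform annotation gave 1 gene symbol for 21789 of 35556 probe sets, several for 1621 and none for 12146. Symbols of 21698 were checked through Entrez identifiers and 0 changed. Each gene took its probe set with the highest mean over the 6 arrays, leaving 19938 genes, 999 of them with a choice of probe sets.

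One linear model per gene was fitted to the 6 arrays in limma 3.58.1 (R 4.3.3), with group as the only term, empirical Bayes moderation with a trend on mean level, and 2-sided p values adjusted by the Benjamini-Hochberg method over all genes. The fit was tested on simulated data. Residuals of miR-365 and miR-145 arrays of the same replicate number correlated at 0.279, 0.193 and 0.256, those of different numbers at −0.21 to −0.025. Deviations within a group cancel out, so the values for different numbers are partly fixed by those for the same number. The replicate numbers were taken to pair the samples. The main fit does not use this pairing. A fit with the numbers as a block is quoted beside results where it changes a named gene's call or moves a list's count by over 1.5 times.

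The comparison, the 29 gene lists (668 of 717 members matched, 10 by an older name) and the named genes were chosen with earlier results of these data known. Named are the 15 largest called differences in each direction among genes whose groups did not overlap and whose higher mean exceeded the median of all genes, up to 5 called members of each list with the largest differences, and a fixed set of interferon genes and ascribed targets. Alternatives were the block, fits to 21 mimic arrays or to 24 values with the control, no trend, further quantile normalization, removal of the lowest 40% of genes, the mean of all probe sets, and each array left out in turn. RefSeq promoters and microRNAs were matched by symbol. Motif shares leave out promoters of 1 chromosome, which are not used here.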

Additional observations from a re-analysis of the deposited data

Results flagged for a closer look

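In data outside the direct comparison, interferon genes lay above the control under 2 further mimics. The mean log2 signal over the 99 interferon genes was 7.91 under miR-22 and 7.87 under miR-29a, and in both the values of all 3 arrays (7.876 to 7.981 and 7.833 to 7.910) exceeded the highest control value of 7.832, each control value being an array averaged with its technical repeat. Taken singly, the highest control array, a technical repeat, was at 7.851, above 1 of the miR-29a arrays. The miR-365 arrays, at 7.869 to 7.954, lay in the same range, and the miR-1 arrays, at 7.633 to 7.712, lay below the control.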

How the results depend on the processing

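Of 139 named genes, 136 kept their direction and side of the threshold with the replicate block, which turned Irf7, Gbp3 and Myc into calls and changed no other, and 139 did so with the mean of all probe sets. Of 122 named genes called over all arrays, 24 lost the call without at least 1 array. The number of genes called was 1978 to 3246 with 1 array left out. The number of interferon genes called was 14 over the 6 arrays, 24 with the replicate block, 36 in the fit to 21 mimic arrays, 42 in the fit to 24 values, and 6 to 31 with 1 array left out. Among all genes the number called rose as well, from 3633 over the 6 arrays to 4668 with the block, 4666 with 21 arrays and 4934 with 24 values. Fits to 21 arrays or 24 values pool the spread of other groups, which can understate the error of genes that vary more under miR-145. The number of interferon genes called lower was 8, against 5 with no trend and 4 after further quantile normalization. The largest number with 1 array left out was 22, without miR-145 replicate 3. Among the named genes, the differences of 4 that were not called turned sign. Eif2ak2 and Il6, named after their values were seen, also turned, to 0.58 and 0.55 without miR-145 replicate 3. With 1 array left out, Ccl5 ranged between −0.708 and 0.291, Ddx58 between −0.944 and 0.152 (both turned without miR-145 replicate 3), Irs1 between −0.182 and 0.065 (turned without miR-365 replicate 1) and Klf4, at 0.00 over all arrays, between −0.111 and 0.128. Klf4 was also at −0.027 after further quantile normalization. The cause of these changes was not tested. The number of arrays limits precision, and levels near 6.66 are close to the signal of probe sets with no listed gene.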

Other observations

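Endothelial and adipocyte markers did not separate the groups. The mean of 6 endothelial markers was 6.43 to 6.53 under miR-365 and 6.43 to 6.65 under miR-145, against 6.37 to 6.50 in the control, and that of 6 adipocyte markers was 7.03 to 7.20 under miR-365 and 7.06 to 7.13 under miR-145, against 7.08 to 7.15 in the control. The endothelial mean of 6.65 was that of miR-145 replicate 3 and was the highest of any array in the series. By limma 0 of these 12 markers were called, and 0 had an unadjusted p under 0.05.

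The interferon mean was 7.77 in the untransfected myoblast array and 7.79 in the untransfected myotube array, which have no replicate. Chemokines induced by interferon showed miR-145 replicate 3 apart as well: Cxcl9, chosen after its values were seen, read 6.53, 6.39 and 6.86 under miR-365 and 7.23, 7.07 and 10.75 under miR-145, with a control mean of 6.76 (difference −1.76 ± 0.77, adjusted p = 0.158, and −0.56 ± 0.14 with an adjusted p of 0.0243 without miR-145 replicate 3). The cytokine Il6, chosen in the same way, read 5.75, 5.0 and 5.10 under miR-365 and 4.6, 4.87 and 6.95 under miR-145, so that replicate 3 lay above and the other miR-145 arrays below all miR-365 arrays.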
